A study of Mus musculus with 8 samples.

Results

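The genes described here are 40 components of proximal T cell receptor (TCR) signalling, the steps that run from the receptor chains at the membrane to the Ras, NF-kB and NFAT arms. They were chosen by name from a list of signalling genes, and all 40 were found among the 23278 genes that each deposited table lists. All 40 were tested by the authors in each of the 4 tables. They are grouped below by role into 4 receptor chains, 3 kinases, 10 adaptors or early effectors, 7 genes of the Ras, diacylglycerol and NF-kB arm, 8 genes of the calcium and NFAT arm, and 8 phosphatases, Csk-axis genes or ubiquitin ligases.

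RNA was sequenced from sorted CD4+CD8+ double-positive (DP) thymocytes of C57BL/6 mice to ask how expression in these cells changes when the histone deacetylase gene Hdac3 is deleted. The 8 libraries fall into 4 groups of 2. Hdac3KO DP2 and Hdac3KO DP1 cells came from animals with floxed Hdac3 alleles and LCK-Cre, a recombinase driven by a T-lineage promoter, and WT DP2 and WT DP1 cells came from animals with unaltered Hdac3 alleles. DP2 cells were sorted as CD5 high with intermediate TCRβ, and DP1 cells as CD5 low with low TCRβ. All 4 sorts were gated on GFP. What drives the GFP, whether the WT animals carried LCK-Cre, the animals' ages and the number of animals in each RNA pool are not given in the sources used here.

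In a thymocyte, peptide and MHC bound by the TCR lead the kinases Lck and Fyn to phosphorylate the CD3 and zeta chains, which recruit the kinase Zap70. Zap70 phosphorylates the scaffolds Lat and Lcp2 (SLP-76), and the complex they hold activates phospholipase C gamma, whose products release calcium towards NFAT and engage Ras and NF-kB. The strength of this signal decides positive and negative selection of DP cells, and CD5 and TCR levels rise as it is received.

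Each gene has 1 deposited FPKM per group, which counts fragments relative to the length of the transcript and the size of the library, so the levels are per length and carry no spread between libraries. A gene is called where the q-value (p adjusted over all genes tested in that table) in the authors' deposited table was 0.05 or less. A log2 change is given as Hdac3KO over WT, or DP2 over DP1, with ± 1 standard error (SE), which was derived from the size of the change and the deposited p. The SE is an upper bound where that p is at the smallest value in the tables, 5e-05. Because libraries were made from RNA pools, the p-values measure only the spread between these libraries. The depth per library is unknown. The authors normalized each table separately, so where DP2 and DP1 values, or both genotypes' stage values, are set side by side below, the levels come from separate tables and their order is a description. In bulk RNA, fewer cells of a type and less RNA per cell cannot be told apart.

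Hdac3 itself was listed at 15.4 FPKM in Hdac3KO DP2 against 29.7 FPKM in WT DP2 (log2 change -0.95, q = 0.0131 in the authors' deposited table), and at 11.7 FPKM in Hdac3KO DP1 against 38.1 FPKM in WT DP1 (-1.70, q = 0.000879 in the authors' deposited table). These gene-level values sum over all exons, and which exons the floxed alleles remove is not given in the sources used here. The 10 markers of DP thymocytes summed to 7930 FPKM in Hdac3KO DP2 against 3705 FPKM in WT DP2, and to 7350 FPKM in Hdac3KO DP1 against 6428 FPKM in WT DP1. Rag1, not called at either stage, made up 3006 against 671 FPKM in DP2 and 2655 against 1199 FPKM in DP1 (Hdac3KO against WT). The order of the DP1 sums rests on Rag1. Cd4, Cd8a and Cd8b1, which define these cells, were at 208 FPKM or more in every group. Among them, Cd4, Cd8b1 and Rag2 were called higher in Hdac3KO DP2, and Trat1 in Hdac3KO DP1. The 7 markers of mature single-positive cells summed to 408 against 150.3 FPKM (Hdac3KO DP2 against WT DP2) and to 157 against 90.5 FPKM (Hdac3KO DP1 against WT DP1), with Ccr7, Gimap4 and Gimap7 called higher at both stages, Il7r called lower in Hdac3KO DP2, and S1pr1 under 1 FPKM in all 4 groups. The 7 markers of the double-negative stage summed to 85.2 against 249 FPKM (Hdac3KO DP2 against WT DP2) and to 83.7 against 117 FPKM (Hdac3KO DP1 against WT DP1), with Il2ra called higher and Hhex called lower at both stages. Hhex alone made up 21.3 against 221 FPKM in DP2 and 8.53 against 47.8 FPKM in DP1, and the order of these sums rests on it. Each list of B cell, myeloid, thymic epithelial or erythroid markers summed to between 1.28 and 20.9 FPKM in every group, the highest being the 7 myeloid markers in Hdac3KO DP2, where Itgam made up 15.7 FPKM. Itgam was called higher in Hdac3KO at both stages, with 15.7 against 1.60 FPKM in DP2 and 9.58 against 2.40 FPKM in DP1 (Hdac3KO against WT), and Psmb11 of the epithelial list and Alas2 of the erythroid list were called higher in Hdac3KO DP1. The 6 natural killer and γδ T markers summed to between 18.5 and 67.5 FPKM, most of it Gzma, which was called lower in Hdac3KO DP1 (37.1 against 66.01 FPKM, Hdac3KO against WT). Xist was at 139 and 208 FPKM in Hdac3KO DP2 and DP1 and at 0.243 and 0.0945 FPKM in WT DP2 and DP1, while Kdm5d, on the Y chromosome, was listed at 0.322 and 0.264 FPKM in Hdac3KO DP2 and DP1 against 34.6 and 20.01 FPKM in WT DP2 and DP1. Sex and genotype therefore cannot be told apart in these libraries. The 40 signalling genes are all autosomal. The part that any of these differences has in the results below was not tested.

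In Hdac3KO cells the transcripts of several adaptors and regulators of TCR signalling were called higher than in WT cells, while the receptor chains, Zap70 and Lck were not called between genotypes. In Hdac3KO DP2, 8 of the 40 genes were called higher and 0 lower (20%). Over all 10674 genes tested in that table, 6.44% were called higher, 4.32% lower and 10.8% in either direction. In Hdac3KO DP1, 13 of the 40 were called higher and 1 lower (35%), beside 10.7% higher, 12.9% lower and 23.6% in either direction over all 10511 genes tested. By Cuffdiff's unadjusted p under 0.05, 1 gene was lower in Hdac3KO DP2, which was Nfatc1 (q = 0.0539 in the authors' deposited table), whereas the normal p of the deposited statistic called 1 other gene lower, the adaptor Nck1 (q = 0.00127 by that statistic). Nck1 had a log2 change of -0.42 ± 0.27 and q = 0.358 in the authors' deposited table.

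The median log2 change of the 40 was 0.35 in DP2 and 0.30 in DP1, where the median of all genes with at least 1 FPKM was 0.08 in DP2 and -0.08 in DP1. The log2 change was above 0 for 32 of the 40 in DP2 and for 27 in DP1, and for 23 at both stages. Genes of 10 FPKM or more in each group had a median log2 change of 0.12 in DP2 and -0.11 in DP1, so a called change can be read relative to those shifts. Relative to that median gene, 5 of the 40 were called higher and 1 lower in Hdac3KO DP2, beside 4.4% higher and 5.74% lower over all genes tested there. By that rule the whole DP2 table held 470 higher and 613 lower calls, against 687 and 461 as deposited, and in DP1 the counts were 1433 higher and 939 lower, against 1120 and 1358.

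The genes called higher in Hdac3KO were Grap2, Itpr1, Malt1, Nfatc2, Pag1 and Themis at both stages, Grb2 and Vav1 in DP2, and Cblb, Fyn, Ppp3cb, Prkcq, Ptprc, Sos1 and Tespa1 in DP1. The 6 shared genes are 75% of the DP2 list and 46.2% of the DP1 list. The matching shares over all genes were not computed, so the overlap cannot be called particular to these genes. The DP2 and DP1 comparisons use separate libraries, and the Hdac3KO and WT groups of each stage have no sample in common with the other stage. Both comparisons hold the sex difference given above.

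**Figure D1:**
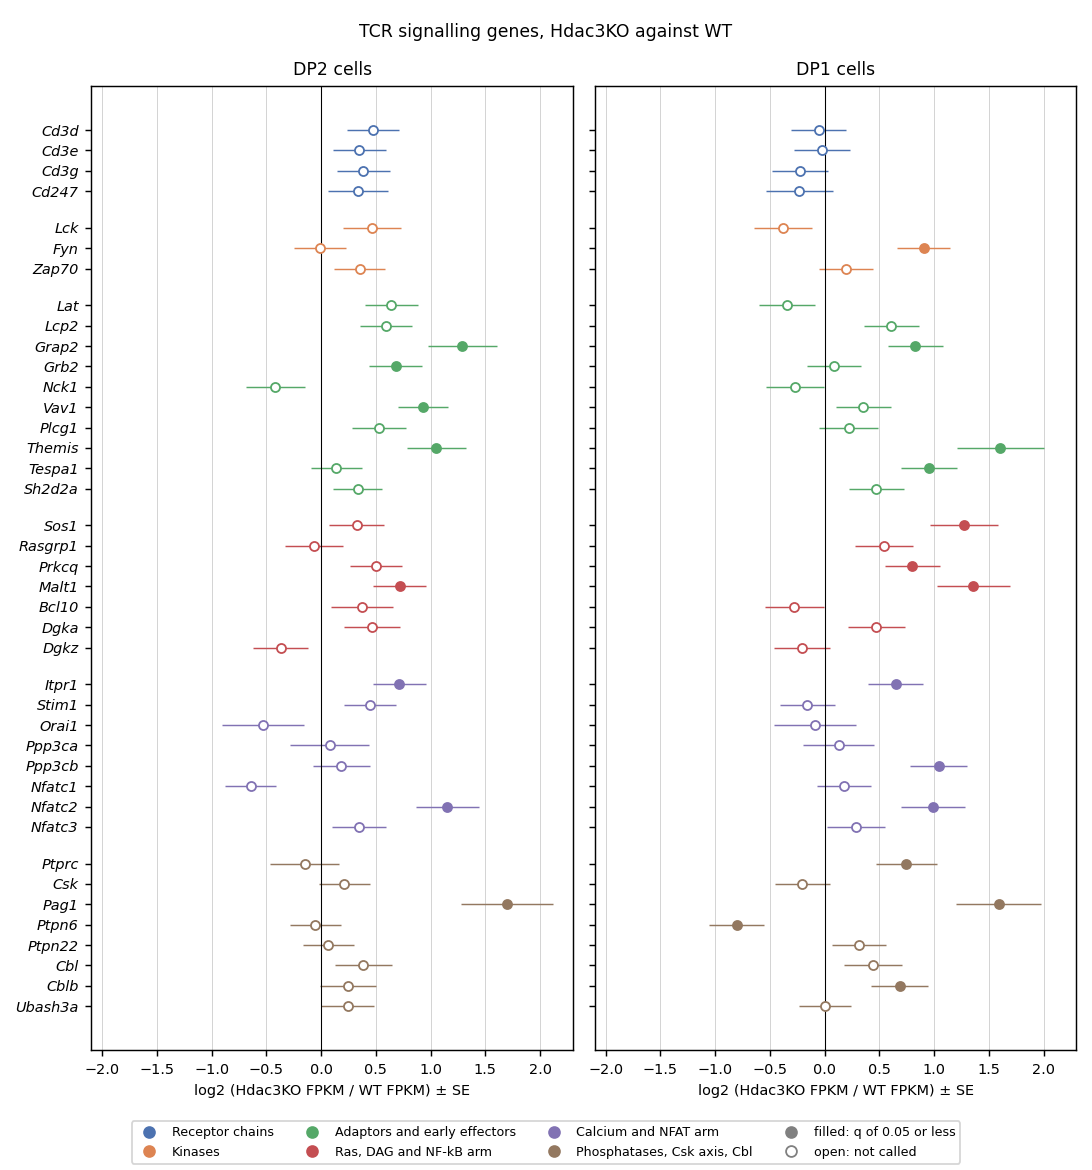
Log2 change (Hdac3KO over WT, axis in log2 units) of all 40 genes in DP2 (left panel) and DP1 (right panel), with bars of ± 1 SE derived from the deposited p and filled points where the deposited q is 0.05 or less. Pag1 lies furthest right in DP2 (1.70) and Themis in DP1 (1.61), and Ptpn6 in DP1 (-0.80) is the 1 filled point left of 0.

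The receptor chains, which carry the tyrosine motifs that Lck phosphorylates, were called in none of the 4 tables. Cd3g had 905 FPKM in Hdac3KO DP2 against 692 in WT DP2, and 583 FPKM in Hdac3KO DP1 against 681 in WT DP1, the highest levels of the 4 chains. Cd3e had 387 against 303 FPKM (Hdac3KO DP2 against WT DP2) and 359 against 365 FPKM (Hdac3KO DP1 against WT DP1). Cd247, the gene of the zeta chain, had 379 against 299 FPKM and 303 against 355 FPKM in the same pairs, and Cd3d 222 against 159 and 152 against 158 FPKM. All 4 log2 changes lay between 0.34 and 0.47 in DP2 and between -0.23 and -0.02 in DP1. The lowest unadjusted p among these 8 values was 0.04255, for Cd3d in DP2 in the authors' deposited table. The widest 95% interval in DP1 was that of Cd247, -0.84 to 0.37 on the log2 scale, so the absence of a call does not show equal levels. When the trend of change on transcript length was removed, the DP1 values were 0.41 for Cd3d, 0.24 for Cd3e, 0.04 for Cd3g and -0.04 for Cd247, and none of the 4 was called. Cd3g, Cd3d and Cd3e lie next to each other on mm10 chromosome 9, between 44969572 and 45009627.

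Of the 3 kinases, Fyn was the called one. Fyn, a Src-family kinase that shares substrates with Lck, had 41.8 FPKM in Hdac3KO DP2 against 42.1 in WT DP2, and 31.2 FPKM in Hdac3KO DP1 against 16.7 in WT DP1. The WT DP1 value was thus the low one of the 4, and the log2 change was 0.91 ± 0.24 in DP1 (q = 0.00255 in the authors' deposited table) and -0.01 ± 0.24 in DP2 (q = 0.988 in the authors' deposited table). Lck, the kinase that starts the cascade, stood far higher per length, at 516 FPKM in Hdac3KO DP2 against 373 in WT DP2 and at 449.6 FPKM in Hdac3KO DP1 against 585 in WT DP1. Its log2 changes had opposite signs, 0.47 ± 0.26 in DP2 and -0.38 ± 0.26 in DP1, and neither was called (q = 0.274 and 0.299 in the authors' deposited tables). The longest Lck transcript has 2185 bases, and at 2000 bases the trend of change on length over all genes was -0.38 in DP1 and 0.09 in DP2. Zap70 had 83.9 against 65.8 FPKM in DP2 and 62.0 against 54.1 FPKM in DP1 (Hdac3KO against WT), with log2 changes of 0.35 ± 0.23 and 0.19 ± 0.25.

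Of the 10 adaptors and early effectors, 4 were called higher in Hdac3KO DP2 and 3 in Hdac3KO DP1, and 0 were called lower at either stage. All genes tested gave 6.44% higher and 4.32% lower in DP2, and 10.7% higher and 12.9% lower in DP1. The median log2 change of the 10 was 0.62 in DP2 and 0.41 in DP1, beside 0.08 and -0.08 over all genes with at least 1 FPKM. Themis, a Grb2-binding protein that tunes TCR signal strength and is needed for positive selection in mice, had 887 FPKM in Hdac3KO DP2 against 428 in WT DP2 (log2 change 1.05 ± 0.27, q = 0.00245 in the authors' deposited table). In DP1 it had 862 FPKM in Hdac3KO against 283 in WT (1.61 ± 0.40, q = 0.000879 in the authors' deposited table), and 862 FPKM was the highest level of any of the 40 genes in Hdac3KO DP1. Both Hdac3KO values stood above both WT values.

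Grap2 (Gads), which bridges Lat to SLP-76, had 179 FPKM in Hdac3KO DP2 against 73.2 in WT DP2 (log2 change 1.29 ± 0.32, q = 0.00134 in the authors' deposited table) and 152 FPKM in Hdac3KO DP1 against 85.3 in WT DP1 (0.83 ± 0.25, q = 0.00882 in the authors' deposited table). Here too both Hdac3KO values exceeded both WT values, although the DP1 call ended when the length trend was removed (0.63, q = 0.0725). Vav1, a Rac exchange factor held in the same complex, had 98.7 FPKM in Hdac3KO DP2 against 51.7 in WT DP2 (0.93 ± 0.23, q = 0.00134 in the authors' deposited table) and 77.9 FPKM in Hdac3KO DP1 against 60.9 in WT DP1 (0.35 ± 0.25, q = 0.312 in the authors' deposited table). Grb2, which brings Sos1 to Lat, had 36.6 FPKM in Hdac3KO DP2 against 22.8 in WT DP2 (0.68 ± 0.24, q = 0.0475 in the authors' deposited table), and this call ended relative to the median gene. Its DP1 values were 36.7 FPKM in Hdac3KO and 34.6 FPKM in WT, so WT DP2 was the low group for Grb2.

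Tespa1, which links TCR signals to calcium release in thymocytes, was high in 3 groups and low in WT DP1. It had 191 FPKM in Hdac3KO DP2 against 174 in WT DP2 (log2 change 0.14 ± 0.23, q = 0.796 in the authors' deposited table) and 138 FPKM in Hdac3KO DP1 against 71.4 in WT DP1 (0.96 ± 0.26, q = 0.00255 in the authors' deposited table). Lat had 427 FPKM in Hdac3KO DP2 against 274 in WT DP2 and 340.3 FPKM in Hdac3KO DP1 against 431 in WT DP1. Its DP2 log2 change of 0.64 ± 0.24 and its DP1 log2 change of -0.34 ± 0.26 were not called (q = 0.0688 and 0.346 in the authors' deposited tables). As with Lck, its longest transcript is short (2053 bases), and the length trend at 2000 bases was -0.38 in DP1 and 0.09 in DP2. Lcp2, the SLP-76 gene, had nearly the same log2 change at both stages, 0.59 ± 0.24 in DP2 (151 against 100.3 FPKM, Hdac3KO against WT) and 0.61 ± 0.25 in DP1 (116 against 76.2 FPKM), and missed the threshold at both (q = 0.0891 and 0.0586 in the authors' deposited tables). It passed in DP1 relative to the median gene, with a log2 change of 0.72. Plcg1, Sh2d2a and Nck1 were not called, with log2 changes of 0.53, 0.33 and -0.42 in DP2 and 0.22, 0.47 and -0.27 in DP1.

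Sequence around a RefSeq transcription start (GRCm38.p6), mostly upstream of that start, was available for 33 of the 40 genes, as 48 windows of 300 bases. Tespa1, Sh2d2a, Malt1, Itpr1, Ppp3ca, Nfatc1 and Pag1 are the other 7. Those of Grap2, Themis and Nfatc2 are shown because they are the genes called higher in Hdac3KO at both stages for which a window was at hand. The Grap2 window lies at chr15:80623233-80623532 on the plus strand, the Themis window at chr10:28668110-28668409 on the plus strand and the Nfatc2 window at chr2:168601608-168601907 on the minus strand, and the Themis and Nfatc2 windows are each the first of 2. The Grap2 gene spans 80572594 to 80652854 on the plus strand of chromosome 15, so its window lies at a start within the gene and not upstream of it. Capitals mark a match, on either strand, to CAGCTG (an E-box of E proteins), TGTGGT (the RUNX core), GGAAGT (an ETS core) or AGGTCA (a nuclear receptor half-site).
Grap2: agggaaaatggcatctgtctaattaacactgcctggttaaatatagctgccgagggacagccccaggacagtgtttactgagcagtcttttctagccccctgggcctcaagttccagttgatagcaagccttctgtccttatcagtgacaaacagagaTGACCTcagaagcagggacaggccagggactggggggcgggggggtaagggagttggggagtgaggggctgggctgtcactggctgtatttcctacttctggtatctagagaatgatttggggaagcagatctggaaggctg
Themis: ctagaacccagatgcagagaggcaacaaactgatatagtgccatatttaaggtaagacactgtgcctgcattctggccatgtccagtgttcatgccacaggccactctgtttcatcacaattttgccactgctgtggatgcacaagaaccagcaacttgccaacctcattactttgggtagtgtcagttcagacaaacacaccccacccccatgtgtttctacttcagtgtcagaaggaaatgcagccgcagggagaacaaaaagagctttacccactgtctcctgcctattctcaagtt
Nfatc2: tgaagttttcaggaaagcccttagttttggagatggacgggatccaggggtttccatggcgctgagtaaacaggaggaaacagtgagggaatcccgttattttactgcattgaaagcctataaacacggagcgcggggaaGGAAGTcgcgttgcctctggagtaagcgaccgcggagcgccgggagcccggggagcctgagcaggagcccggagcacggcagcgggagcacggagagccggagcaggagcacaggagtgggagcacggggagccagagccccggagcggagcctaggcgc

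The Grap2 window held 1 AGGTCA match, read on the minus strand, the Nfatc2 window 1 GGAAGT match on its own strand, and the Themis window 0 matches. CAGCTG was in 6 of the 48 windows of the signalling genes and in 16.3% of all 32851 RefSeq windows of the same length. TGTGGT was in 5 of the 48 and in 16.8% of all windows, AGGTCA in 6 of the 48 and in 16.3% of all, and GGAAGT in 19 of the 48 and in 23.8% of all. Of the 15 windows of genes called higher at either stage, 2 held CAGCTG, 1 TGTGGT, 5 GGAAGT and 2 AGGTCA. None of the 4 motifs is contained in another, and a match describes letters in a window, not binding.

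Of the 7 genes of the Ras, diacylglycerol and NF-kB arm, 1 was called higher in Hdac3KO DP2 and 3 in Hdac3KO DP1, and 0 were called lower. The shares over all genes tested were 6.44% higher and 4.32% lower in DP2, and 10.7% higher and 12.9% lower in DP1. Malt1, the paracaspase of the complex that activates NF-kB, had 24.1 FPKM in Hdac3KO DP2 against 14.6 in WT DP2 (log2 change 0.72 ± 0.24, q = 0.0336 in the authors' deposited table) and 17.9 FPKM in Hdac3KO DP1 against 6.96 in WT DP1 (1.36 ± 0.34, q = 0.000879 in the authors' deposited table). The DP2 call ended relative to the median gene (0.60). Its partner Bcl10 was not called at either stage, with 25.9 against 20.0 FPKM in DP2 and 20.1 against 24.4 FPKM in DP1 (Hdac3KO against WT). Prkcq, the diacylglycerol-activated kinase upstream of that complex, had 176 FPKM in Hdac3KO DP2 against 124 in WT DP2 (0.50 ± 0.24, q = 0.177 in the authors' deposited table) and 103 FPKM in Hdac3KO DP1 against 59.1 in WT DP1 (0.80 ± 0.25, q = 0.0109 in the authors' deposited table).

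Sos1 and Rasgrp1 encode Ras exchange factors. Sos1 was low in every group, at 7.01 FPKM in Hdac3KO DP2 against 5.60 in WT DP2 (0.32 ± 0.25, q = 0.467 in the authors' deposited table) and at 8.76 FPKM in Hdac3KO DP1 against 3.63 in WT DP1 (1.27 ± 0.31, q = 0.000879 in the authors' deposited table). Rasgrp1, the exchange factor activated by diacylglycerol, stood far higher per length and was not called, with 228 against 238 FPKM in DP2 and 189 against 129.6 FPKM in DP1 (Hdac3KO against WT). The diacylglycerol kinases, which end that signal, were not called either. Dgka had 340.0 against 247 FPKM in DP2 and 241 against 174 FPKM in DP1, and Dgkz 117 against 151 and 92.4 against 107 FPKM, so the log2 changes of Dgka were positive (0.46 and 0.47) and those of Dgkz negative (-0.37 and -0.21).

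Of the 8 genes of the calcium and NFAT arm, 2 were called higher in Hdac3KO DP2 and 3 in Hdac3KO DP1, and 0 were called lower. The shares over all genes tested were 6.44% higher and 4.32% lower in DP2, and 10.7% higher and 12.9% lower in DP1. Itpr1, an inositol trisphosphate receptor that releases calcium from the endoplasmic reticulum, had 66.5 FPKM in Hdac3KO DP2 against 40.6 in WT DP2 (log2 change 0.71 ± 0.24, q = 0.0333 in the authors' deposited table) and 55.9 FPKM in Hdac3KO DP1 against 35.7 in WT DP1 (0.65 ± 0.25, q = 0.0436 in the authors' deposited table). The DP2 call ended relative to the median gene and both calls ended with the length trend removed. Store-operated entry is carried by Stim1, the calcium sensor, and Orai1, the channel. Stim1 had 36.5 against 26.8 FPKM in DP2 and 37.1 against 41.4 FPKM in DP1, and Orai1, the lowest of the 40 genes in 3 of the 4 groups, 4.26 against 6.15 FPKM in DP2 and 1.92 against 2.04 FPKM in DP1 (Hdac3KO against WT). Neither was called between genotypes.

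Calcineurin and NFAT gave called and uncalled genes side by side. Ppp3cb, a catalytic subunit of calcineurin, had 21.8 FPKM in Hdac3KO DP2 against 19.2 in WT DP2 (0.19 ± 0.26, q = 0.737 in the authors' deposited table) and 34.5 FPKM in Hdac3KO DP1 against 16.8 in WT DP1 (1.04 ± 0.26, q = 0.000879 in the authors' deposited table). Hdac3KO DP1 was the high group of the 4. The deposited locus of Ppp3cb is shared with 1810062O18Rik and Usp54, so its level is uncertain to that extent, and the same holds for Cd247 with Pou2f1, Plcg1 with Zhx3 and Dgka with Pmel. Ppp3ca, another catalytic subunit, had 9.54 against 9.05 FPKM in DP2 and 6.40 against 5.86 FPKM in DP1 and was not called.

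Nfatc2, an NFAT factor, had 12.4 FPKM in Hdac3KO DP2 against 5.56 in WT DP2 (1.15 ± 0.28, q = 0.00134 in the authors' deposited table) and 8.97 FPKM in Hdac3KO DP1 against 4.52 in WT DP1 (0.99 ± 0.29, q = 0.00627 in the authors' deposited table). The DP1 change lost its call after removal of the length trend (0.69, q = 0.089). Nfatc1 had a negative log2 change in DP2, with 22.8 FPKM in Hdac3KO against 35.6 in WT (-0.65 ± 0.24, q = 0.0539 in the authors' deposited table), and was 20.5 against 18.1 FPKM in DP1. Its DP2 change was not called as deposited and was called lower relative to the median gene (-0.76, q = 0.0178). Nfatc3, the most abundant of the 3 NFAT genes per length, had 159 against 125 FPKM in DP2 and 186 against 152 FPKM in DP1 and was not called.

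Among the 8 phosphatases, Csk-axis genes and ubiquitin ligases, 1 was called higher in Hdac3KO DP2, and 3 higher and 1 lower in Hdac3KO DP1. All genes tested gave 6.44% higher and 4.32% lower in DP2, and 10.7% higher and 12.9% lower in DP1. Pag1 (Cbp), the membrane anchor that brings the inhibitory kinase Csk to Lck and Fyn, had 84.7 FPKM in Hdac3KO DP2 against 26.1 in WT DP2 (log2 change 1.70 ± 0.42, q = 0.00134 in the authors' deposited table) and 80.8 FPKM in Hdac3KO DP1 against 26.9 in WT DP1 (1.59 ± 0.39, q = 0.000879 in the authors' deposited table). Its DP2 change was the largest of the 40 in that table, and the 2 stages gave nearly the same values within each genotype. Csk itself was not called, with 147 against 127 FPKM in DP2 and 96.3 against 111 FPKM in DP1 (Hdac3KO against WT).

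Ptprc, the CD45 phosphatase that keeps Lck active, had 711 FPKM in Hdac3KO DP2 against 789 in WT DP2 (-0.15 ± 0.31, q = 0.837 in the authors' deposited table) and 609 FPKM in Hdac3KO DP1 against 363 in WT DP1 (0.74 ± 0.28, q = 0.0363 in the authors' deposited table). As with Fyn and Tespa1, WT DP1 was the low group, and the DP1 call ended with the length trend removed (0.52). Ptpn6, which encodes the phosphatase SHP-1, was the 1 lower call between genotypes. It had 114 FPKM in Hdac3KO DP2 against 119 in WT DP2 (-0.05 ± 0.23, q = 0.929 in the authors' deposited table) and 61.4 FPKM in Hdac3KO DP1 against 107 in WT DP1 (-0.80 ± 0.25, q = 0.0111 in the authors' deposited table), so Hdac3KO DP1 was the low group of the 4. This call also ended with the length trend removed (-0.49) and with the trend on GC content removed (-0.52).

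Cblb, a ubiquitin ligase that limits TCR signals, had 8.73 FPKM in Hdac3KO DP2 against 7.35 in WT DP2 (0.25 ± 0.25, q = 0.613 in the authors' deposited table) and 8.61 FPKM in Hdac3KO DP1 against 5.36 in WT DP1 (0.68 ± 0.26, q = 0.0412 in the authors' deposited table). Once the length trend was removed, the DP1 change was 0.40 and no longer called (q = 0.327). Its paralog Cbl, which is the form abundant in thymocytes, stood far higher per length and was not called, at 228 against 174 FPKM in DP2 and 242 against 178 FPKM in DP1 (Hdac3KO against WT). Ptpn22 and Ubash3a, both brakes on TCR signalling, were not called, with log2 changes of 0.06 and 0.24 in DP2 and 0.31 and 0.0034 in DP1.

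**Figure D2:**
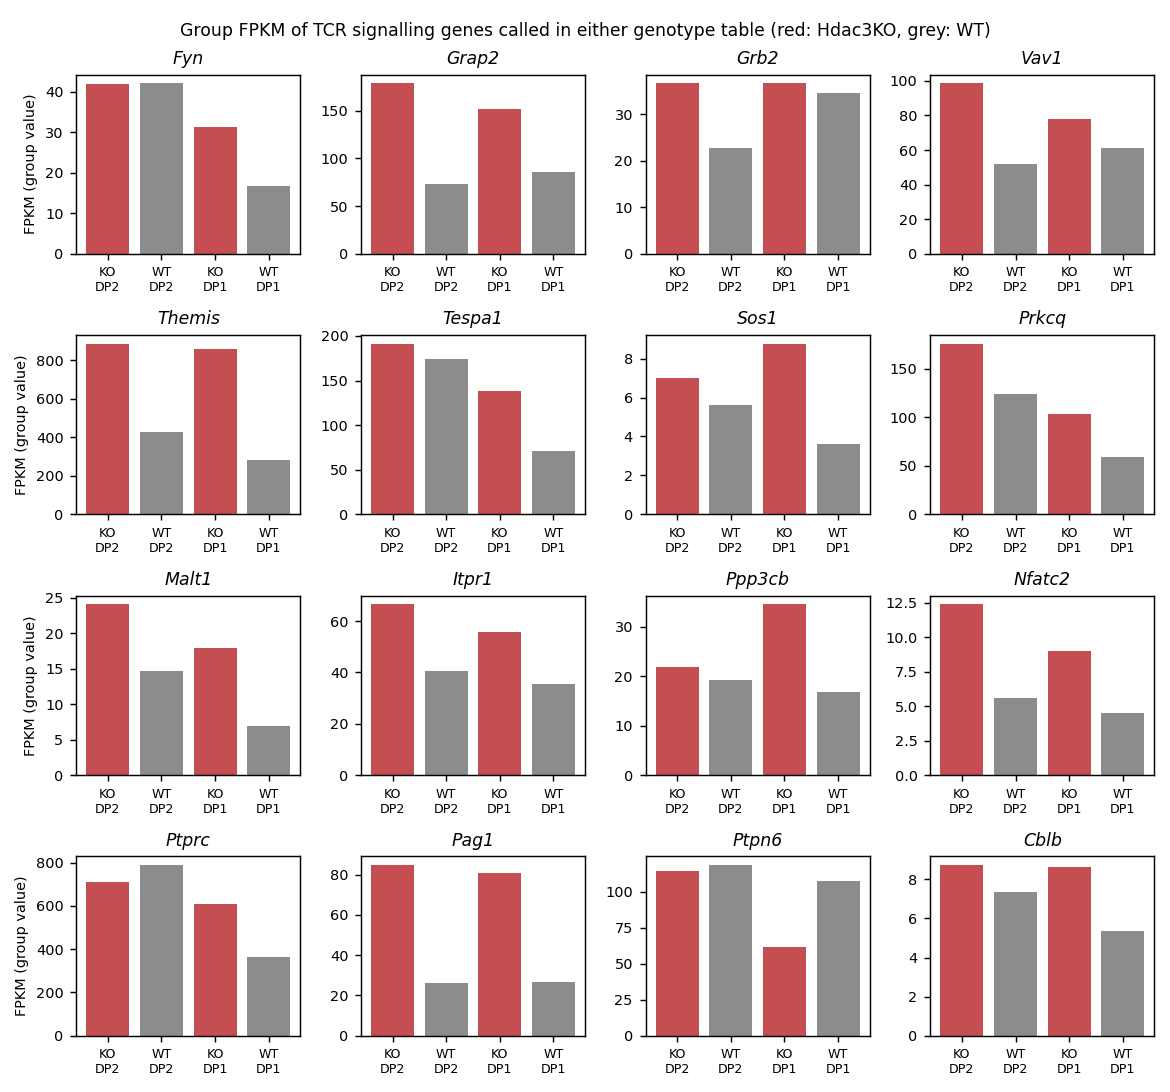
Deposited FPKM (linear axis from 0, 1 value per group and so no error bars) of the 16 signalling genes called between genotypes, with bars for Hdac3KO DP2, WT DP2, Hdac3KO DP1 and WT DP1 taken from the genotype tables. Themis, Pag1, Grap2 and Nfatc2 are higher in both Hdac3KO groups than in both WT groups. The same order holds for Itpr1, Vav1, Malt1, Sos1, Cblb, Grb2 and Ppp3cb. For Fyn, Tespa1 and Ptprc the WT DP1 value is the low one.

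Per length, the 40 genes spanned a wide range in each group. The lowest, median and highest levels were 4.26 FPKM (Orai1), 98.7 and 905 FPKM (Cd3g) in Hdac3KO DP2, against 5.56 FPKM (Nfatc2), 70.8 and 789 FPKM (Ptprc) in WT DP2. They were 1.92 FPKM (Orai1), 75.4 and 862 FPKM (Themis) in Hdac3KO DP1, against 2.04 FPKM (Orai1), 61.8 and 681 FPKM (Cd3g) in WT DP1. Between 34 and 36 of the 40 genes reached 10 FPKM in each group. The comparison of stages rests on the stage tables described below.

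A call at DP1 alone or at DP2 alone is no difference between the stages, so the difference of the genotype effects (DP2 minus DP1) was tested for all 10144 genes tested in both genotype tables. At a q (two-sided normal test of the difference over its SE, Benjamini-Hochberg adjustment over all these genes) of 0.05, 0 of the 40 genes passed, beside 2.08% of all genes. The difference was positive for 20 of the 40 and negative for 20, and the unadjusted p was under 0.05 for 9 of them. The same difference taken from the stage tables (the same libraries, compared the other way) gave 0 of the 40 at the threshold, beside 3.13% of 9969 genes, and an unadjusted p under 0.05 for 12. The shares of all genes at that unadjusted p were not computed, so the 9 and the 12 cannot be called particular to these genes. At a q of 0.10 the 1 gene that passed was Lat, beside 5.73% of all genes. Its difference was 0.98 ± 0.35 (q = 0.097), and 1.11 ± 0.36 (q = 0.0533) from the stage tables. Neither the trend of change on transcript length nor the shift of the median gene was removed for this test. Among genes of 10 FPKM or more in each group, the median log2 change was 0.12 in DP2 and -0.11 in DP1. In the stage tables it was -0.01 in Hdac3KO and -0.33 in WT. The differences, Lat's among them, therefore include this offset, and the split of 20 and 20 is not centred on a typical gene.

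The largest differences among the 40 fell into a group where the genotype effect was more negative in DP2 and a group where it was more positive. In the first group were Sos1 (-0.95 ± 0.40, q = 0.173), Fyn (-0.91 ± 0.34, q = 0.116), Ptprc (-0.89 ± 0.42, q = 0.228), Ppp3cb (-0.86 ± 0.36, q = 0.177), Nfatc1 (-0.82 ± 0.34, q = 0.166) and Tespa1 (-0.82 ± 0.35, q = 0.173). The other group held Lat, Lck (0.85 ± 0.37, q = 0.191) and Ptpn6 (0.75 ± 0.34, q = 0.211). The longest transcripts of Lat, Lck and Ptpn6 have 2053, 2185 and 2308 bases, and those of the first group between 2311 (Tespa1) and 8436 (Sos1). At 2000 bases the length trend of all genes was -0.38 in DP1 and 0.09 in DP2. The part of that trend, or of the median shift given above, in these differences was not tested. Pag1, Nfatc2, Itpr1 and Lcp2 had differences of 0.11 ± 0.57, 0.16 ± 0.41, 0.07 ± 0.35 and -0.02 ± 0.35. With SE of this size, a difference below about 1 on the log2 scale was hard to detect, and a missed threshold does not show equal effects.

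The stage tables ask how expression differs between DP2 and DP1 cells of the same genotype. In Hdac3KO, 2 of the 40 genes were called higher in DP2 and 1 lower (7.5%), beside 1.78% higher, 4.65% lower and 6.43% in either direction over all 10231 genes tested. In WT, 6 were called higher in DP2 and 4 lower (25%), beside 5.56% higher, 16.8% lower and 22.3% in either direction over all 10851 genes tested. The median log2 change (DP2 over DP1) of the 40 was 0.17 in Hdac3KO, where it was 0.01 over all genes with at least 1 FPKM, and -0.05 in WT, where it was -0.24 over all such genes. The 2 stage tables share their libraries with the genotype tables, so these values are another view of the same groups and no independent evidence, and the difference in the counts was not tested.

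The WT stage table is centred away from 0, with a median log2 change of -0.33 among genes of 10 FPKM or more in each group, against -0.01 in the Hdac3KO stage table. Relative to that median gene, 8 of the 40 were called higher in WT DP2 and 0 lower, beside 10.9% higher and 6.51% lower over all genes, and the whole WT table held 1184 higher and 706 lower calls, against 603 and 1818 as deposited. The 4 genes called lower in WT DP2 lost that call relative to the median gene, with log2 changes that remained at -0.57 for Lck, -0.59 for Lat, -0.54 for Grb2 and -0.56 for Stim1 (q of 0.240, 0.146, 0.174 and 0.152). The median of the 40 was 0.28 with the length trend removed and 0.33 with the GC trend removed, where the median of all genes with at least 1 FPKM was 0.07 and 0.11.

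The genes called higher in WT DP2 were Fyn, Tespa1, Prkcq, Malt1, Nfatc1 and Orai1. Fyn had 38.0 FPKM in Hdac3KO DP2 against 31.2 in Hdac3KO DP1 (log2 change 0.28 ± 0.21), and 40.2 FPKM in WT DP2 against 19.0 in WT DP1 (1.08 ± 0.29, q = 0.00261 in the authors' deposited table). Tespa1 had 174 against 139 FPKM in Hdac3KO (0.32 ± 0.21) and 169 against 81.0 FPKM in WT (1.06 ± 0.29, q = 0.00361 in the authors' deposited table), DP2 against DP1 each time. In both genes the low value was that of WT DP1.

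Prkcq was the gene called higher in DP2 in both genotypes, with 159 FPKM in Hdac3KO DP2 against 103 in Hdac3KO DP1 (0.63 ± 0.21, q = 0.0401 in the authors' deposited table) and 119 FPKM in WT DP2 against 66.9 in WT DP1 (0.84 ± 0.28, q = 0.0196 in the authors' deposited table). Malt1 had 21.8 against 17.9 FPKM in Hdac3KO (0.29 ± 0.22) and 14.1 against 7.89 FPKM in WT (0.84 ± 0.30, q = 0.0267 in the authors' deposited table). Orai1, the store-operated channel, had 3.86 against 1.91 FPKM in Hdac3KO (1.02 ± 0.39, q = 0.112 in the authors' deposited table, not called) and 5.83 against 2.34 FPKM in WT (1.32 ± 0.45, q = 0.0213 in the authors' deposited table). Nfatc1 had 20.6 against 20.4 FPKM in Hdac3KO (0.02 ± 0.21) and 33.9 against 20.7 FPKM in WT (0.72 ± 0.28, q = 0.0494 in the authors' deposited table). WT DP2 was thus the high group for Nfatc1, and the other 3 groups lay between 20.4 and 20.7 FPKM in these separately scaled tables. In the genotype tables those 3 groups were further apart, at 22.8 FPKM in Hdac3KO DP2, 20.5 in Hdac3KO DP1 and 18.1 in WT DP1.

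The genes called lower in WT DP2 were Lck, the scaffold Lat, its adaptor Grb2 and the calcium sensor Stim1. Lck had 468 against 449 FPKM in Hdac3KO (0.06 ± 0.21) and 358 against 666 FPKM in WT (-0.90 ± 0.33, q = 0.0353 in the authors' deposited table), DP2 against DP1 each time. Lat had 386 against 338 FPKM in Hdac3KO (0.19 ± 0.21) and 260.0 against 493 FPKM in WT (-0.92 ± 0.29, q = 0.0123 in the authors' deposited table). For both, the Hdac3KO groups lay close together and the WT groups stood on either side of them. Grb2 had 33.2 against 36.5 FPKM in Hdac3KO (-0.14 ± 0.21) and 21.6 against 39.5 FPKM in WT (-0.87 ± 0.28, q = 0.0146 in the authors' deposited table). Stim1 had 33.1 against 36.9 FPKM in Hdac3KO (-0.16 ± 0.21) and 25.5 against 47.2 FPKM in WT (-0.89 ± 0.28, q = 0.0114 in the authors' deposited table).

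Ptpn6 and Ppp3cb were called between stages in Hdac3KO and not in WT. Ptpn6 had 104 FPKM in Hdac3KO DP2 against 61.4 in Hdac3KO DP1 (0.76 ± 0.21, q = 0.00849 in the authors' deposited table) and 114 FPKM in WT DP2 against 122 in WT DP1 (-0.09 ± 0.27). Ppp3cb had 19.9 FPKM in Hdac3KO DP2 against 34.5 in Hdac3KO DP1 (-0.80 ± 0.22, q = 0.00849 in the authors' deposited table) and 18.3 FPKM in WT DP2 against 19.1 in WT DP1 (-0.06 ± 0.29). In each gene Hdac3KO DP1 was the group apart, low for Ptpn6 and high for Ppp3cb. The test of the difference between the genotypes, given above, passed for neither.

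The other genes called between genotypes were not called between stages. Their stage changes (DP2 over DP1) lay between -0.46 for Sos1 and 0.33 for Nfatc2 in Hdac3KO, and between -0.50 for Vav1 and 0.91 for Ptprc in WT. Grap2 had 162 against 151 FPKM in Hdac3KO and 70.1 against 96.9 FPKM in WT, and Vav1 89.5 against 77.7 and 49.1 against 69.5 FPKM. Themis had 807 against 870.4 FPKM in Hdac3KO and 418 against 318 FPKM in WT, and Pag1 76.9 against 80.7 and 24.9 against 30.5 FPKM. For Grap2, Themis and Pag1, both genotype changes were larger in size than both stage changes. Ptprc had 646 against 613 FPKM in Hdac3KO and 769 against 409 FPKM in WT (q = 0.0558 in the authors' deposited table), Sos1 6.37 against 8.74 and 5.35 against 4.11 FPKM, and Cblb 7.93 against 8.60 and 7.03 against 6.09 FPKM. Itpr1 had 60.4 against 56.0 FPKM in Hdac3KO and 39.2 against 40.4 FPKM in WT, and Nfatc2 11.2 against 8.92 and 5.29 against 5.15 FPKM.

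**Figure D3:**
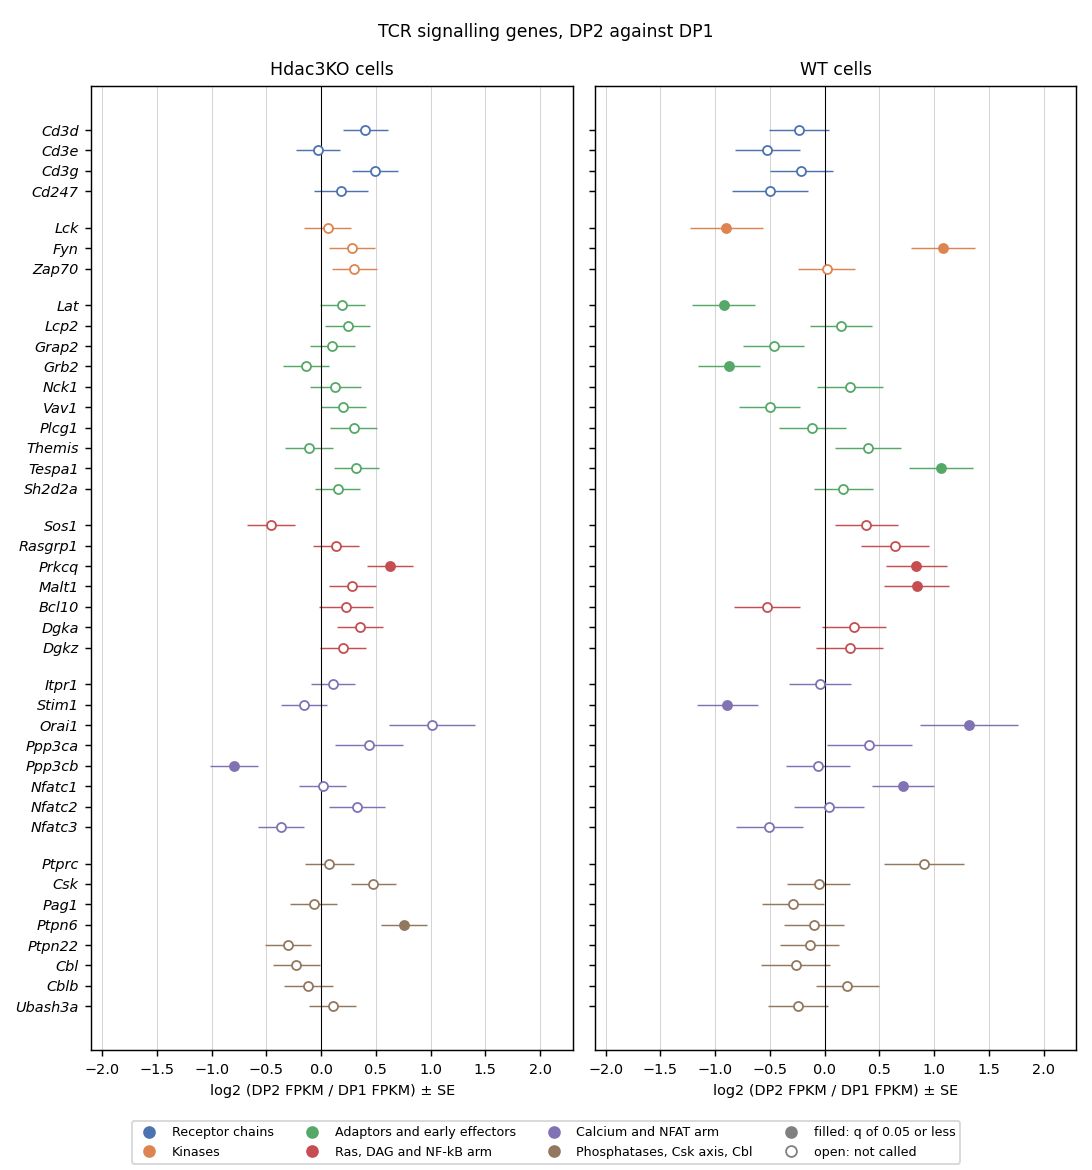
Log2 change (DP2 over DP1, axis in log2 units) of all 40 genes in Hdac3KO (left panel) and WT (right panel), with bars of ± 1 SE derived from the deposited p and filled points where the deposited q is 0.05 or less. The Hdac3KO panel has 3 filled points (Prkcq, Ptpn6 and Ppp3cb) and the WT panel 10, on both sides of 0.

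Transcript length moved with the genotype change in DP1. Over all genes of 10 FPKM or more in each group, the lowess trend of the DP1 log2 change was -0.64 at 1000 bases, -0.38 at 2000, -0.02 at 4000 and 0.38 at 8000 bases, while in DP2 it was 0.09, 0.09, 0.11 and 0.12 at the same lengths. The WT stage table had a trend of -0.82, -0.54, -0.24 and 0.08 at these lengths and the Hdac3KO stage table one of 0.02, 0.04, -0.01 and -0.10, so the 2 tables with a trend are those that hold WT DP1. The 13 genes called higher in Hdac3KO DP1 had a median length of 5740 bases, against 2960 bases for the 26 uncalled ones and 3233 bases for all genes tested. The 8 genes called higher in Hdac3KO DP2 had a median of 5939.5 bases, against 3737.5 bases for the 32 uncalled ones.

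With the length trend removed, 9 of the 40 genes were called higher in Hdac3KO DP1, beside 8.93% of all genes tested, and 0 lower. These 9 were Fyn, Themis, Tespa1, Sos1, Prkcq, Malt1, Ppp3cb, Pag1 and, newly called, Lcp2 (0.69). Themis stood at 1.45 and Pag1 at 1.19 on that scale. In Hdac3KO DP2, 5 of the 40 were called higher with the trend removed (Grap2, Vav1, Themis, Nfatc2 and Pag1), beside 4.42% of all genes tested. Themis and Pag1 were called higher at both stages as deposited and under each of the 6 alternatives run on these calls.

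**Figure D4:**
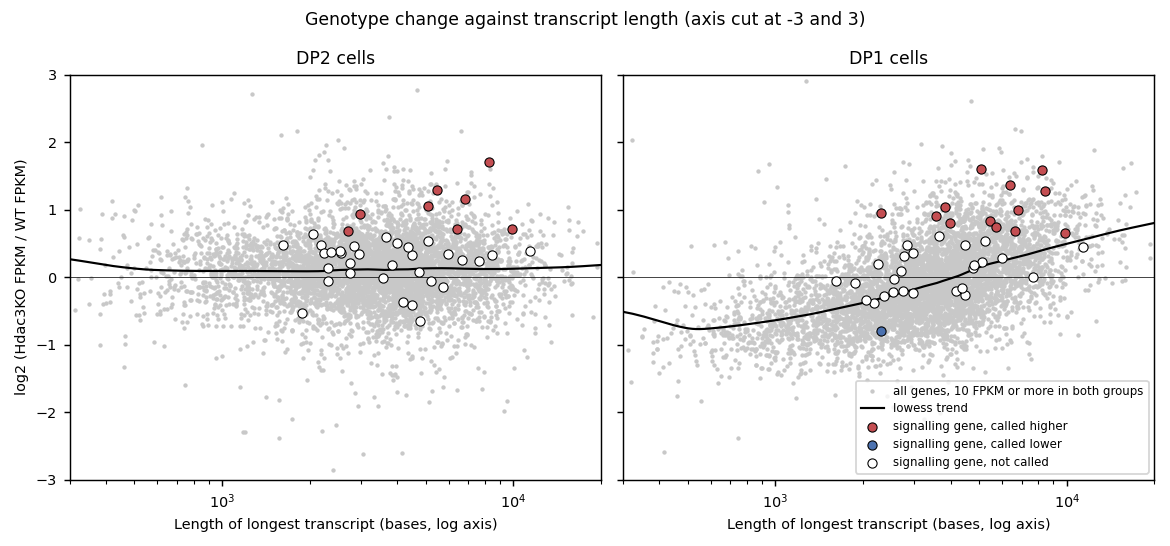
Log2 change (Hdac3KO over WT, log2 units) against length of the longest transcript in bases (log axis) in DP2 (left panel) and DP1 (right panel), with all genes of at least 10 FPKM as grey points, their lowess trend as a line, and the 40 signalling genes as circles (red called higher, blue called lower, white not called). The line is nearly flat in DP2 and slopes upward in DP1, at -0.64 for 1000 bases and 0.38 for 8000 bases, and the red circles lie above it in both panels.

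The other genes of the pathway, a list of 86 adaptors, kinases, Ras and MAPK genes, phosphatases, NF-kB activators and calcium genes, gave 84 entries in the tables. Of the 82 tested in DP2, 13 were called higher in Hdac3KO and 1 lower (median log2 change 0.28), and of the 81 tested in DP1, 19 were called higher and 1 lower (median 0.23). Over all genes tested, 6.44% were called higher and 4.32% lower in DP2, and 10.7% higher and 12.9% lower in DP1, with medians of 0.08 in DP2 and -0.08 in DP1 over all genes with at least 1 FPKM. The Tec-family kinase Txk was called higher at both stages. Txk had 100.1 FPKM in Hdac3KO DP2 against 42.4 in WT DP2 (1.24 ± 0.31, q = 0.00134 in the authors' deposited table) and 73.8 FPKM in Hdac3KO DP1 against 25.6 in WT DP1 (1.53 ± 0.38, q = 0.000879 in the authors' deposited table).

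Vav3, a relative of Vav1, had 13.4 FPKM in Hdac3KO DP2 against 4.87 in WT DP2 (1.47 ± 0.36, q = 0.00134 in the authors' deposited table) and 8.96 FPKM in Hdac3KO DP1 against 1.60 in WT DP1 (2.49 ± 0.61, q = 0.000879 in the authors' deposited table). Both WT values of Vav3 lay under the 5 FPKM asked of a named pathway gene, which it reached through the Hdac3KO groups. Among Ras GTPase activators, which turn Ras off, Rasa3 had 33.2 FPKM in Hdac3KO DP2 against 11.1 in WT DP2 (1.58 ± 0.39, q = 0.00134 in the authors' deposited table) and 22.0 FPKM in Hdac3KO DP1 against 12.0 in WT DP1 (0.88 ± 0.25, q = 0.00518 in the authors' deposited table). Rasa1 had 35.7 FPKM in Hdac3KO DP1 against 13.2 in WT DP1 (1.43 ± 0.35, q = 0.000879 in the authors' deposited table), and was not called in DP2, with 28.0 FPKM in Hdac3KO against 30.5 in WT (-0.12 ± 0.23). In DP2 the adaptor Grap, a relative of Grb2, had 147 FPKM in Hdac3KO against 65.7 in WT (1.17 ± 0.29, q = 0.00134 in the authors' deposited table), and it was not called in DP1 (0.46 ± 0.25). In DP1 the adaptor Trat1 had 333 FPKM in Hdac3KO against 158 in WT (1.08 ± 0.27, q = 0.000879 in the authors' deposited table) and Nfat5 17.4 FPKM in Hdac3KO against 7.21 in WT (1.27 ± 0.31, q = 0.000879 in the authors' deposited table). In DP2 neither was called, with log2 changes of 0.57 ± 0.24 for Trat1 and -0.18 ± 0.23 for Nfat5. The lower genes were the adaptor Sh3bp2 in DP2, with 7.64 FPKM in Hdac3KO against 16.5 in WT (-1.11 ± 0.30, q = 0.00426 in the authors' deposited table), and Mapk3 (ERK1) in DP1, with 7.56 FPKM in Hdac3KO against 14.3 in WT (-0.92 ± 0.28, q = 0.00911 in the authors' deposited table). At the other stage neither was called, with -0.71 ± 0.35 for Sh3bp2 in DP1 and -0.29 ± 0.35 for Mapk3 in DP2.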

How the data were processed

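RNA from sorted DP thymocytes was sequenced in 8 libraries, 2 for each of 4 groups. Per the labels' protocols, RNA was extracted with Trizol, ribosomal RNA was depleted and pooled RNA was made into stranded libraries by a Clontech SMARTer kit. Per the submitters' processing notes, the tools were Trimmomatic 0.32, TopHat2 2.0.11 and Cuffdiff 2.1.1 with the mm10 genome, and their settings and gene annotation are not given in the sources used here. The authors deposited 4 tables of 2 groups each, with 1 FPKM value per gene and group, scaled within that table. The deposited test statistic is a score and was used as an alternative. The deposited p-value and q-value are those of Cuffdiff, and the q-value was checked to be the Benjamini-Hochberg adjustment over the genes tested in that table. No value per library was used here, so no SD, binomial interval or depth is given. FPKM of the same group differ between tables, with a median ratio (stage table over genotype table, over the 40 genes) of 0.907 in Hdac3KO DP2 and 0.958 in WT DP2, and of 0.999 in Hdac3KO DP1 and 1.14 in WT DP1.

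Log2 changes were computed from the deposited FPKM with no pseudocount, and standard errors as their size over the normal quantile of the deposited p, with numpy 2.4.6, pandas 2.3.3, scipy 1.17.1 and statsmodels 0.14.6 in Python 3.11.15. The genes, the lists of other pathway genes and of markers, and the alternatives were chosen with earlier results of these data known. Every gene called in any table is named with its values, 21 of the 40, and the other 19 by value or range. In each genotype table, at most the 5 called pathway genes with the largest change are named, of those whose higher group reached 5 FPKM, with Mapk3 added after its values were seen. Some genes of these lists are not reported here. Of the 86 pathway genes listed, Gads is a synonym of Grap2 and Hras was not matched. Each gene's length and GC content were taken from its longest GENCODE M21 transcript, found for 97.6% of genes, and a lowess trend (fraction 0.3), drawn through genes of 10 FPKM or more in each group, was subtracted. Alternatives were q thresholds of 0.01 and 0.10, scaling to the median gene, removal of the length or the GC trend, the normal p of the deposited statistic, a pseudocount of 1, other FPKM minimums, SE multiplied by 1.5 and the stage tables as a route to the difference.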

Additional observations from a re-analysis of the deposited data

How the results depend on the processing

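None of the called changes reversed in sign relative to the median gene or with the length or GC trend removed. The other q thresholds and the statistic's p keep the same log2 change, so they could not reverse one. Of the 35 called gene changes in the 4 tables, 28 were also called relative to the median gene, 26 with the GC trend removed, 22 with the length trend removed, 18 at q of 0.01 and 9 by the normal p of the deposited statistic. In Hdac3KO DP1, genes called higher numbered 13 as deposited and 5 by the statistic's p, beside 10.7% and 7.03% over all genes tested. The 1 lower call became 0 at q of 0.01, with the length or GC trend removed and by the statistic's p. Over all genes, lower calls were 6.29%, 5.58%, 7.74% and 7.66% in that order. The DP1 median became 0.49 with the GC trend removed. In Hdac3KO DP2, higher calls went to 5 (q of 0.01, median gene, length) and 3 (statistic), beside 3.52%, 4.4%, 4.42% and 2.3% over all genes. Lower calls in DP2 went to 1, which was Nfatc1 (q of 0.10, median gene, length, GC) or Nck1 (statistic). Over all genes, lower calls were 6.01%, 5.74%, 5.73%, 5.48% and 5.46% in that order. The DP2 median went to 0.25 (length). Across stages in Hdac3KO, higher calls became 1 at q of 0.01 and 0 by the statistic, beside 0.919% and 1.67% over all genes. Lower calls across these stages became 0 by the statistic, beside 4.35% over all genes. In WT, higher calls became 2 (q of 0.01) and 1 (statistic), beside 2.67% and 4.98% over all genes. Lower calls in WT became 0 (q of 0.01, median gene, length, GC, statistic), beside 8.58%, 6.51%, 4.64%, 4.61% and 7.8% over all genes. The WT median became 0.28 (length) or 0.33 (GC). Among the other pathway genes, lower calls became 3 in DP1 at q of 0.10, beside 17.6% over all genes. They became 2 in DP2 (q of 0.10, median gene, length), beside 6.01%, 5.74% and 5.73%, and 0 across Hdac3KO stages (length), beside 4.52%. Across WT stages there were 15 higher and 0 lower relative to the median gene, 9 lower at q of 0.10 and 1 lower with the length trend removed. Over all genes these shares were 10.9%, 6.51%, 22.3% and 4.64% in that order. The difference between stages called 1 gene at a q of 0.10, beside 5.73% of all genes. With SE multiplied by 1.5 it called 0 of the signalling genes. Because 0 of all 10144 genes were called there, that setting says nothing particular about the signalling genes. The cause of these shifts was not tested. No paired analysis was possible because the deposited tables hold 1 value per group, and leaving out replicates was not run for the same reason. With 2 libraries per group and no value per library, small changes of single genes cannot be resolved, and the lowly expressed Orai1 and Ppp3ca had SE between 0.31 and 0.45.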

Other observations

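Among the other pathway genes, 80 were tested in the Hdac3KO stage table, where 2 were called higher in DP2 and 2 lower, beside 1.78% higher and 4.65% lower over all genes tested. Of the 82 tested in the WT stage table, 8 were called higher and 5 lower, beside 5.56% higher and 16.8% lower over all genes tested, and relative to the median gene the counts were 15 higher and 0 lower. Sh3bp2, an adaptor of Syk-family and Abl kinases, was called higher in DP2 in both genotypes, with 6.93 against 1.59 FPKM in Hdac3KO (2.13 ± 0.52, q = 0.00151 in the authors' deposited table) and 15.7 against 2.97 FPKM in WT (2.40 ± 0.59, q = 0.000835 in the authors' deposited table), DP2 against DP1 each time. It was thus the gene of this list with the largest called stage change in each genotype, and it was also called lower in Hdac3KO DP2 than in WT DP2. Rcan1, an inhibitor of calcineurin, had 2.46 FPKM in WT DP2 against 6.97 in WT DP1 (-1.50 ± 0.46, q = 0.0095 in the authors' deposited table). Vav3 had 4.69 FPKM in WT DP2 against 1.82 in WT DP1 (1.37 ± 0.40, q = 0.00588 in the authors' deposited table). The phosphatase Ubash3b, a relative of Ubash3a, had 2.44 against 0.887 FPKM (1.46 ± 0.53, q = 0.0324 in the authors' deposited table) in the same pair. Sh3bp2, Rcan1, Vav3 and Ubash3b were singled out after their values were seen.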
